A study of Mus musculus with 6 samples.

Results

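The loops described here are the chromatin loops that Hi-C called in mouse embryonic stem cells depleted of Brg1 and that had no counterpart in cells depleted of Ino80 or in control cells. Each loop is a pair of anchors of 10 kb that touch more often than their surroundings. A loop of the Brg1KD list was taken as found only in Brg1KD when no loop of the Ino80KD list and none of the Control list had both anchor starts within 30 kb (3 anchor widths) of its own. Of 5848 autosomal loops in the Brg1KD list, 871 (14.9%) met this rule, out of 16936 autosomal loops over the 3 lists. These loops were chosen by their measured positions in the 3 lists, so their absence from the other lists is a description and carries no test.

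All cells were E14 (E14TG2a), a male mouse embryonic stem cell line of wild type genotype, cultured with serum and LIF at passages 18 to 26 and collected after 48 h of knockdown. Brg1KD cells received esiRNA (an enzymatically cut pool of short interfering RNAs) against Smarca4, the gene of Brg1. Ino80KD cells received esiRNA against Ino80, and Control cells received esiRNA against EGFP, a gene foreign to mouse cells. Each group had 2 libraries, 1 in each of 2 batches, and 1 loop list. The lists are named as merged but recorded with replicate 2 of their group, and that each pools both libraries was assumed here. A loop thus has no replicate, and no difference between lists can be set against a spread between replicates. The knockdown itself cannot be read from Hi-C.

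Loops of this kind form where the cohesin ring extrudes DNA until it meets CTCF, and loops also join enhancers to promoters. Brg1 is the ATPase of BAF, a complex that slides and evicts nucleosomes and keeps many enhancers of embryonic stem cells accessible. Ino80 is the ATPase of another remodelling complex, which spaces nucleosomes near promoters.

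The loops of the stem cell microRNA genes and of a zinc-finger gene cluster are shown first, with their sequences. An anchor of 1 loop found only in Brg1KD held the whole cluster of miR-302 and miR-367, a set of microRNA genes that is strongly tied to the pluripotent state and whose miR-302 members share a seed with other stem cell microRNAs. This loop ran from chr3:127320001-127330000 to chr3:127540001-127550000 (mm10), over 220 kb. The cluster of 5 hairpins lies at chr3:127545228-127545807 on the forward strand, within the bounds of Larp7, the gene of a protein that binds the 7SK RNA. The mature sequences in RefSeq (GRCm38.p6) are given 5′ to 3′ with the seed, bases 2 to 8, in capitals, because the seed sets which transcripts a microRNA can pair with.
mmu-miR-302b-3p: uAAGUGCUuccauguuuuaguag
mmu-miR-302d-3p: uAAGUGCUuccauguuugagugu
mmu-miR-302c-3p: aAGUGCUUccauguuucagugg
mmu-miR-302b-5p: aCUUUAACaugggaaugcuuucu
mmu-miR-302c-5p: gCUUUAACaugggguuaccugc
mmu-miR-302d-5p: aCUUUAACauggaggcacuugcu
mmu-miR-302a-5p: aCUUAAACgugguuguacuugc
mmu-miR-367-3p: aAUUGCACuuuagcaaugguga
mmu-miR-367-5p: aCUGUUGCuaacaugcaacuc

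The 3p arms of miR-302b and miR-302d share the seed AAGUGCU, which 5 of 1581 mature microRNAs in the RefSeq table carry. No 3p arm of miR-302a was among the sequences at hand, so its seed was not read and the printed set may be incomplete. The 5p arms of miR-302b, miR-302c and miR-302d share a seed of their own. All 3 lists held a loop of 110 kb that starts at the left anchor and a loop of 90 kb that ends at the microRNA anchor. The loop found only in Brg1KD joined the outer anchors of these shorter loops. A second loop found only in Brg1KD, of 200 kb, started just beyond the cluster at chr3:127560001-127570000. With both anchors within 500 kb of the cluster, there were 7 loops of the Brg1KD list, 5 of the Ino80KD list and 4 of the Control list. The 7 include 2 loops found only in Brg1KD, which the rule keeps out of the other lists, so nothing is read from these counts. The cluster was singled out after its position was seen, and microRNA genes as a whole were not frequent at these anchors. Loops found only in Brg1KD held a microRNA gene in 6 cases (0.689%), against 58 loops (0.992%) in the whole Brg1KD list, 53 (0.994%) in the Ino80KD list and 60 (1.04%) in the Control list.

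The loop between Zfp786, Zfp398 and Zfp956, genes of zinc-finger proteins, had no loop of the other lists close by. It joined chr6:47830001-47840000 to chr6:47950001-47960000 over 120 kb, and no loop of the Ino80KD or Control list had both anchors within 500 kb of it. By the larger of the 2 distances between anchor starts, the nearest loop was 830 kb away in the Ino80KD list, where its left anchor started at 48320001, and 1230 kb away in the Control list. Both anchors were labelled A.1.1, the most A-like of 8 subcompartments (A is the gene-rich, active part of the nucleus and B the inactive part), in all 6 libraries, so the loop was listed in Brg1KD without a change of label there. Its anchors held the transcription starts of all 3 genes, and each promoter had a match to a plain-letter form of the core of the CTCF motif: CC, any 3 bases, AGG, any base and GGC, searched on both strands. The promoters run from 250 bases before to 50 bases after the start, on the strand of the gene, with the match in capitals (RefSeq, GRCm38.p6).
Zfp786, chr6:47830456-47830755, reverse strand: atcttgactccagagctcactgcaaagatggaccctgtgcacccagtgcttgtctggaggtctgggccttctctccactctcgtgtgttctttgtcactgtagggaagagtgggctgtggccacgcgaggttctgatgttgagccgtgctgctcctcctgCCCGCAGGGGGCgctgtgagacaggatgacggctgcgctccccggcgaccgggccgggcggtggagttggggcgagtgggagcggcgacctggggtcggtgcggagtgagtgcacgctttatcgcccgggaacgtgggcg
Zfp398, chr6:47835411-47835710, forward strand: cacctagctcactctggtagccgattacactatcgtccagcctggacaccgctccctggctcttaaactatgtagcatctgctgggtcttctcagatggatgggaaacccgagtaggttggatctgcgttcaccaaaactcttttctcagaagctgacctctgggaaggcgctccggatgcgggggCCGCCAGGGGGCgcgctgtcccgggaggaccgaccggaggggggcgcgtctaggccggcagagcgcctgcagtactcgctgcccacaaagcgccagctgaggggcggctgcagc
Zfp956, chr6:47953140-47953439, forward strand: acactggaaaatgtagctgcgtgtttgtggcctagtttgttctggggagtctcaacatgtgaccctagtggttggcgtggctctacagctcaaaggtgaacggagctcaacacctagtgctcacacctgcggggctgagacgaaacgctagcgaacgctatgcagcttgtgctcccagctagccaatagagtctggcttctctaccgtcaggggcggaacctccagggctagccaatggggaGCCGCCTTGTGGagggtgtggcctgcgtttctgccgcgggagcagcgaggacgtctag

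On the genome the match at Zfp398 lies on the forward strand and the match at Zfp956 on the reverse strand, so these face each other across the loop, while the match at Zfp786 lies on the reverse strand. Such matches were uncommon at the promoters of these anchors. They occurred in 11 of 195 promoters (5.64%) at anchors of loops found only in Brg1KD, against 42 of 819 (5.13%) at anchors of Brg1KD loops found in all 3 lists and 847 of 20085 (4.22%) over all autosomal promoters of the same length. A match is a run of letters and does not show binding.

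**Figure D1:**
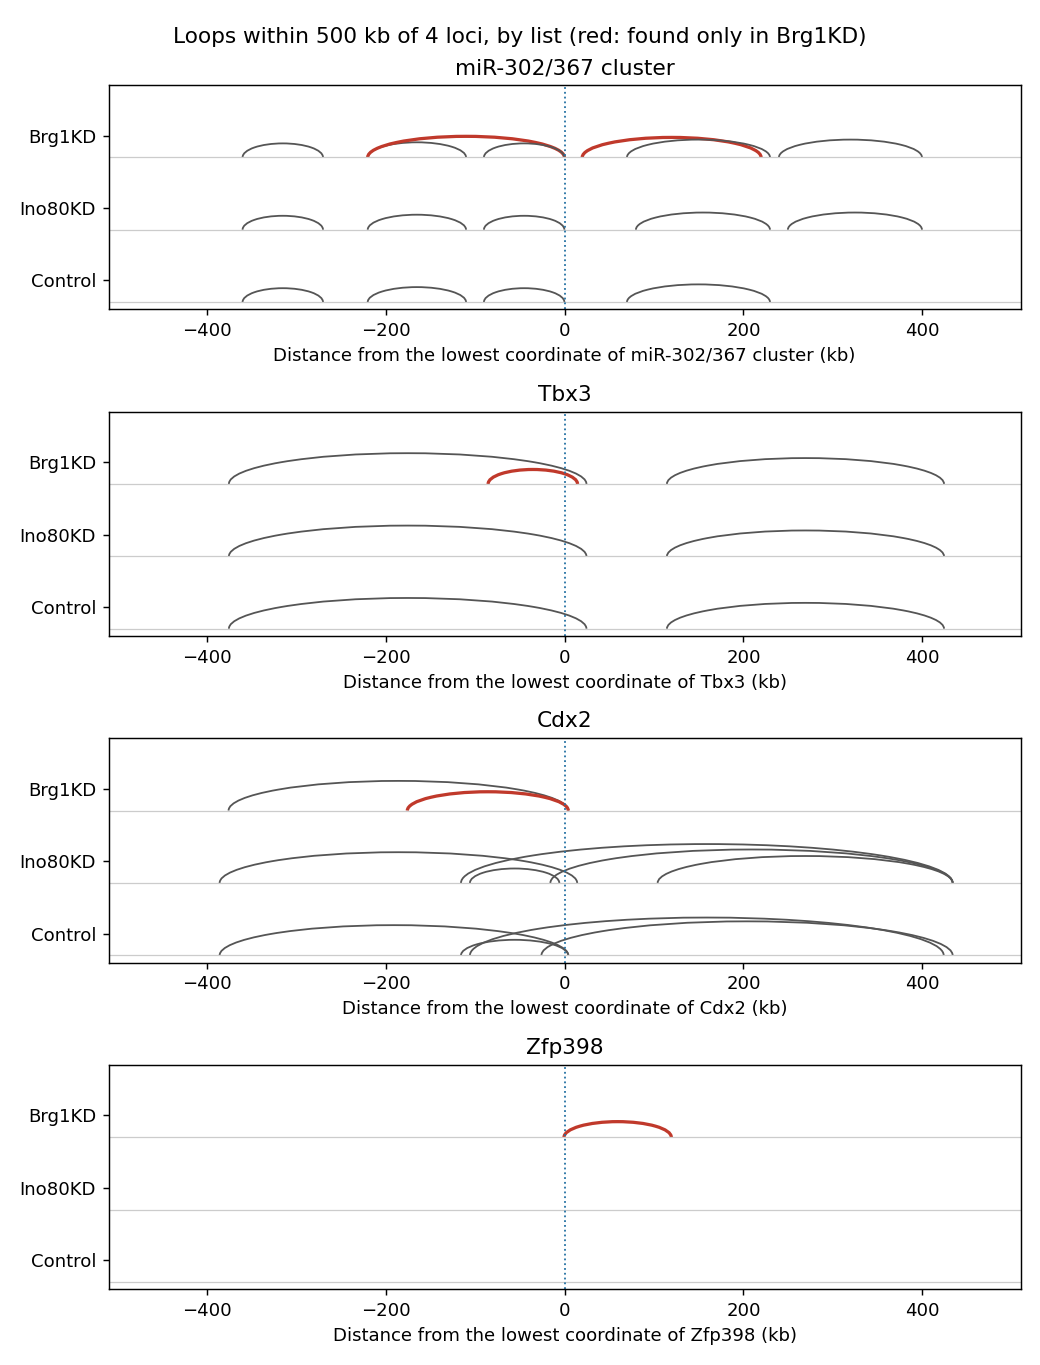
Loops with both anchors within 500 kb of 4 loci, drawn as arcs between their anchor centres (height grows with length and carries no value) against the distance (kb) from the lowest coordinate of the locus, with the Brg1KD, Ino80KD and Control lists from top to bottom. Red arcs are loops found only in Brg1KD. At the miR-302 and miR-367 cluster the red arc of 220 kb spans shorter loops that all 3 lists hold, and at Zfp398 the red arc is the sole loop drawn.

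Loops private to 1 list were most frequent in Brg1KD. They made up 871 of 5848 loops (14.9%) in Brg1KD, against 481 of 5330 (9.02%) in Ino80KD and 640 of 5758 (11.1%) in Control. A further 4046 Brg1KD loops (69.2%) had a partner in both other lists. The private share of Brg1KD was above that of Ino80KD on 18 of 19 autosomes and above that of Control on 17. It ran from 11.6% on chromosome 9 (39 of 335 loops) to 19.2% on chromosome 4 (60 of 313 loops). The exceptions were chromosome 14, at 14.2% in Brg1KD against 15.3% in Ino80KD and 16.3% in Control, and chromosome 9, where Control was at 11.7%. Autosomes are parts of 1 list per group and not replicates, so these counts carry no test. Depth is unknown for all lists and was not matched between them; its part in these shares was not tested.

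**Figure D2:**
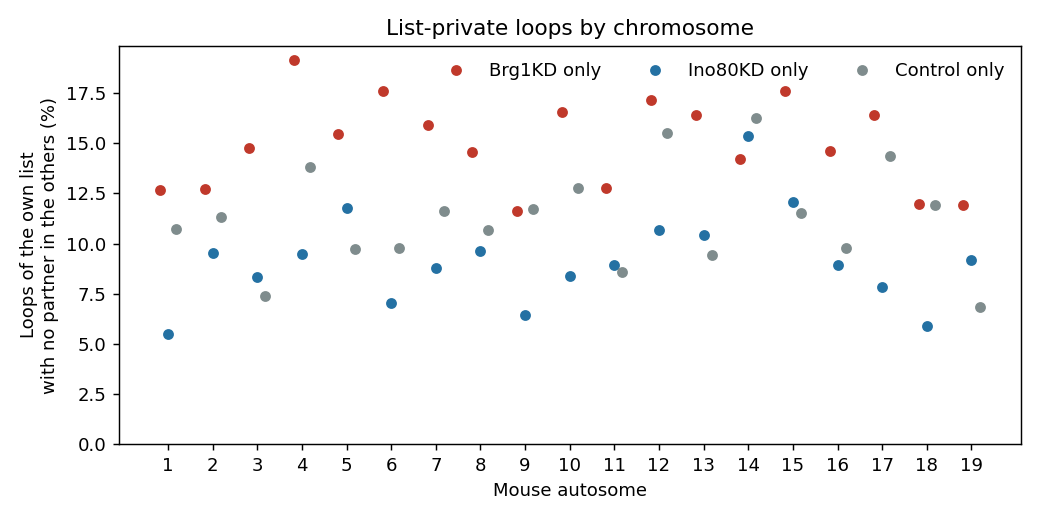
Share of each list's loops with no partner in the other lists (%), by mouse autosome, for Brg1KD, Ino80KD and Control from left to right within an autosome. Brg1KD points lie between 11.6% and 19.2% and stand highest on most autosomes, with chromosomes 9 and 14 as exceptions.

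The loops found only in Brg1KD were somewhat longer than the loops found in all 3 lists and not longer than the private loops of the other lists. Their median length was 280 kb, with quartiles of 160 and 520 kb. The median was 310 kb for loops found only in Ino80KD, 320 kb for loops found only in Control and 240 kb for Brg1KD loops found in all 3 lists. Private loops took a rising share of longer loops in every list. In Brg1KD the share was 13.1% below 200 kb, 13.9% from 200 kb to under 500 kb, 19.9% from 500 kb to under 1000 kb and 22.4% from 1000 kb up. At 1000 kb and more, 20.5% of Ino80KD loops and 19.1% of Control loops were private.

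**Figure D3:**
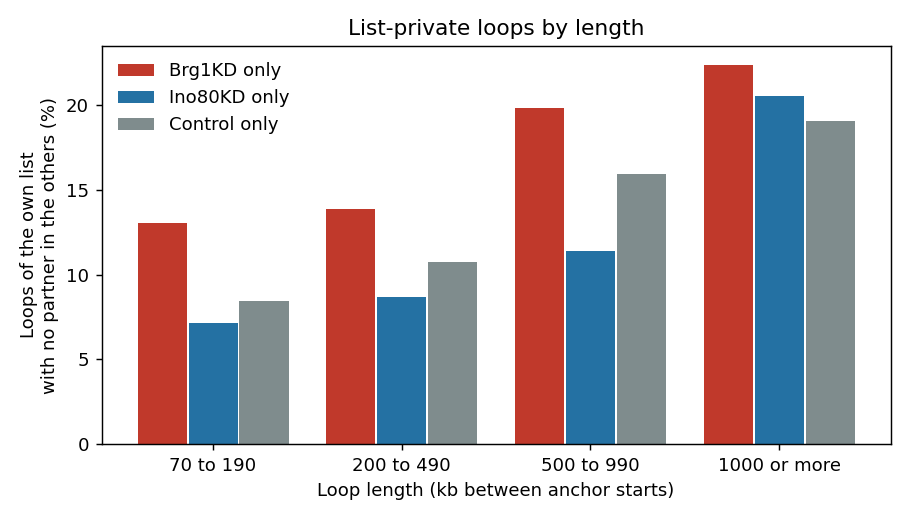
Share of each list's loops that were private to it (%), by loop length in kb, for Brg1KD, Ino80KD and Control from left to right. In every list the share is highest among loops of 1000 kb or more, at 22.4% in Brg1KD.

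The longest loop found only in Brg1KD spanned 1890 kb on chromosome 1, from 189660001 to 191550001, with anchors of the other lists within 10 kb of both ends. The next, of 1790 kb on chromosome 7, ended at the start of Ate1, the gene of the arginyltransferase that marks proteins for degradation, and no loop of the other lists had an anchor within 10 kb of either end. Loops of 1710 kb on chromosome 13, 1630 kb on chromosome 5 and 1600 kb on chromosome 2 followed. The chromosome 13 loop joined anchors labelled B.2.1 or B.2.2, the most B-like subcompartments, in all 6 libraries. The chromosome 5 loop started at Tesc, which encodes the calcium-binding protein tescalcin.

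The distance from loops found only in Brg1KD to another loop varied widely. The nearest loop of the other lists, by the larger of the 2 anchor distances, was at a median of 200 kb (quartiles 110 and 340 kb), and 204 loops (23.4%) had one within 100 kb. Just outside the threshold, 23 loops had their nearest loop at 40 kb, such as the loop of 450 kb that starts at Uap1 on chromosome 1, and just inside it 36 Brg1KD loops had theirs at 30 kb. At the other end, 28 loops had none within 1000 kb. The most isolated lay on chromosome 2 between 97730001 and 98550001, with the nearest loop 2960 kb away. A loop of 410 kb from the start of Amy2b, a pancreatic amylase gene, was 2200 kb from the nearest other loop.

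**Figure D4:**
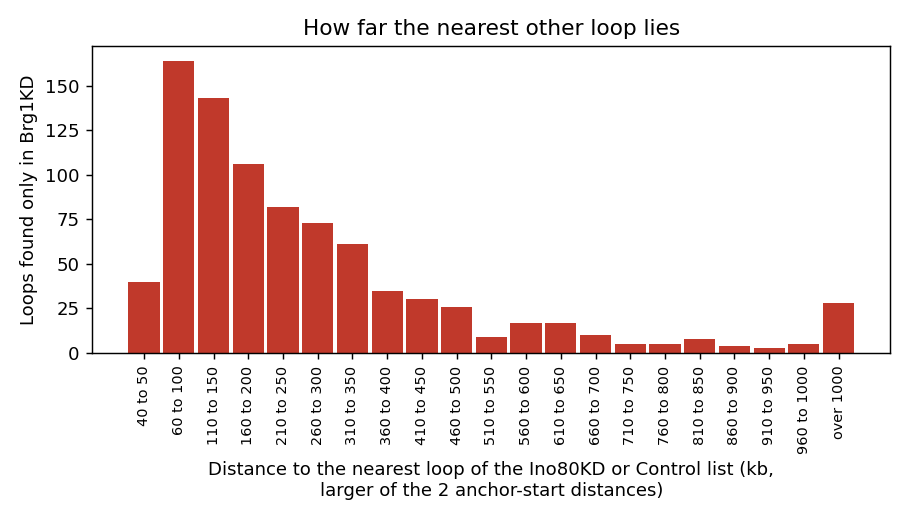
Number of loops found only in Brg1KD by the distance (kb) to the nearest loop of the Ino80KD or Control list, in steps of 50 kb. The tallest bars lie at 60 to 150 kb, the median is 200 kb, and the last bar holds the 28 loops over 1000 kb away.

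Most loops found only in Brg1KD had at least 1 anchor that loops of the other lists also used. Of their anchors, 43.8% lay within 10 kb of an anchor of the Ino80KD or Control list. Both anchors were used there in 154 loops (17.7%), 1 anchor in 455 (52.2%) and none in 262 (30.1%). The private loops of the other lists were alike in this, with both anchors used in 19.3% for Ino80KD and 18.4% for Control. Of 534 loops that shared the left or the right anchor with a Control loop, 235 (44.0%) were longer than every such Control loop and 232 (43.4%) were shorter. In the mirror comparison, 385 loops found only in Control shared an anchor with a Brg1KD loop, and 170 of them (44.2%) were longer and 150 (39.0%) shorter. Longer and shorter loops were thus about equally frequent among loops found only in Brg1KD.

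Like the miR-302 loop, 76 loops found only in Brg1KD (8.73%) joined the outer anchors of 2 shorter Control loops. The mirror share, loops found only in Control over Brg1KD loops, was 50 (7.81%). Such spanning loops included 1 of 640 kb that ended at Wnt4, over loops of 410 and 210 kb. A loop of 360 kb between Mynn, a zinc-finger gene, and Phc3, a subunit of Polycomb repressive complex 1, spanned 2 loops of 130 kb each.

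Among developmental genes, 5 of 65 listed signalling ligands and receptors (7.69%) had an end in an anchor of a loop found only in Brg1KD, against 359 of 20665 protein-coding genes (1.74%). They were Wnt4, Wnt5b and Wnt7b, which encode secreted Wnt ligands, Dll1, which encodes a Notch ligand, and Acvr2a, which encodes an activin receptor. Among the transcription starts at hand, which did not cover all genes, only that of Dll1 lay in the anchor. The others were placed by an end of the gene, which need not be its promoter. For comparison 17 of these 65 genes lay at anchors of Brg1KD loops found in all 3 lists, where 1756 of the 20665 genes lay. These sets of genes overlap, as 20 of the 65 lay at an anchor of any Brg1KD loop. At an anchor of any Control loop lay 22 of the 65. Loops found only in Ino80KD had 2 of the 65 at an anchor and 246 of the 20665. Loops found only in Control had 2 and 290. These counts carry no test.

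The 3 Wnt loops reused anchors of other loops at both ends. The Wnt5b loop, of 320 kb on chromosome 6 (119110001 to 119430001), was 80 kb from the nearest Control loop. The Wnt7b loop, of 440 kb on chromosome 15, started at Ribc2 and was 140 kb from the nearest loop. The Dll1 loop was of another kind. It joined chr17:15070001-15080000 to the start of Dll1 in chr17:15370001-15380000 over 300 kb, and no loop of another list had an anchor within 10 kb of either end. The nearest loop was 540 kb away in Ino80KD and 530 kb away in Control. The Acvr2a loop, of 410 kb, had no such anchor within 10 kb either, although a loop of each other list started 20 kb from its left anchor. Its left anchor also held an end of Orc4. The loop ended within Mbd5, a gene of a methyl-CpG-binding domain protein.

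Of the transcription factors, Tbx3 was the sole member of 26 placed pluripotency genes at such an anchor, Cdx2 the sole member of 10 trophectoderm genes and Hoxd3 the sole member of 39 Hox genes. Tbx3 encodes a T-box factor of the pluripotency network. Its loop spanned 100 kb on chromosome 5 (119580001 to 119680001), inside a loop of 400 kb that all 3 lists held. The right anchor of the Tbx3 loop held an end of the gene and no transcription start at hand. Cdx2 encodes the factor that specifies trophectoderm. A loop of 180 kb found only in Brg1KD ended at its start, in chr5:147300001-147310000. The Ino80KD list instead held a loop of 100 kb to about the same place, with its left anchor 70 kb away, and the Control list a loop of 120 kb, with its left anchor 60 kb away. Loops that ran from the Cdx2 region to an anchor that starts at 147720001 or 147730001 numbered 0 in Brg1KD, 3 in Ino80KD and 2 in Control among those with both anchors within 500 kb of the gene. Both Cdx2 anchors were labelled A.1.1 in both Brg1KD libraries, A.1.1 and A.1.2 in the 2 Ino80KD libraries and A.1.2, 1 class lower, in both Control libraries. The Hoxd3 loop, of 340 kb, left an anchor that also served 3 Ino80KD and 4 Control loops.

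Of genes that fold chromosomes, Pds5a, a regulator of cohesin release, was the sole one of 13 placed. A loop of 160 kb joined its start to that of Ube2k, a ubiquitin-conjugating enzyme gene. No listed gene of primitive endoderm (13 placed), mesendoderm (13), neuroectoderm (14), BAF (20), INO80 (14), Polycomb (19), neural transcription factors (50) or fibroblast markers (8) was at such an anchor. Smarca4 had 2 loops in Brg1KD, 2 in Ino80KD and none in Control, and none of them was private to Brg1KD. Sox2 had none in Brg1KD, 1 in Ino80KD and 1 in Control, and Pou5f1, Nanog and Ino80 had none in any list. These counts need an end of the gene inside an anchor of 10 kb, whereas loops were matched within 30 kb. A small shift of an anchor between lists can thus change them, and no gain or loss of a loop is read from them. As a check of cell identity, all 8 embryonic stem cell marker genes lay in A subcompartments in all 6 libraries, as did 4 of 8 fibroblast marker genes. Hi-C gives no transcript level.

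Loops with a gene at both ends were few. A protein-coding gene end lay in both anchors of 49 loops found only in Brg1KD (5.63%), against 49 (10.2%) for loops found only in Ino80KD, 32 (5.00%) for loops found only in Control and 269 (6.65%) for Brg1KD loops found in all 3 lists. Transcription starts were at hand for 16457 genes, against 20665 protein-coding genes placed by their ends, so counts of starts are lower bounds. Such starts lay in both anchors of 16 loops found only in Brg1KD (1.84%). The counts were 19 (3.95%) for loops found only in Ino80KD and 5 (0.781%) for loops found only in Control. For Brg1KD loops found in all 3 lists the count was 60 (1.48%). Of the 16 loops, 13 had both anchors in A in all 6 libraries, and of all 871 loops 359 (41.2%) did. How often such loops of the other classes lay in A was not counted. The loops between transcription starts included Mutyh, a DNA repair glycosylase gene, with Plk3, a kinase gene, and Pgap2 and Nup98, a nucleoporin gene, with Rrm1, which encodes a subunit of ribonucleotide reductase. By the larger of the 2 anchor distances, the farthest from any other loop (910 kb) was 1 of 950 kb on chromosome 13. It joined Mtrr and Fastkd3 to Tent4a, and its right anchor also served 1 Ino80KD and 1 Control loop. Mtrr encodes methionine synthase reductase and Tent4a a poly(A) polymerase. Its left anchor was labelled B.2.1 or B.1.2 and its right anchor A.1.1 or A.1.2 in all 6 libraries. A loop of 1080 kb joined Sncb, the beta-synuclein gene, to Pitx1, a homeobox gene of hindlimb identity. Shorter loops joined Hacd1 to Stam and Gnb3 to Mlf2 (90 kb each), Adam1b to Acad12 (110 kb) and Rbak to Zfp853 (120 kb). A loop of 100 kb joined Pcdhb5 to Pcdhb11, neighbouring protocadherin genes of neuronal adhesion. Both genes lie whole inside the anchors, but their starts were not among those counted.

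Anchors of loops found only in Brg1KD lay less often in A than anchors of loops found in all 3 lists, in every library. In the Brg1KD libraries 53.8% and 55.9% of the anchors were in A, in the Ino80KD libraries 53.7% and 54.6%, and in the Control libraries 55.7% and 55.6%. For Brg1KD loops found in all 3 lists the shares were 65.0% and 66.4%, 65.7% and 66.5%, and 67.1% and 67.8% in the same libraries. The ranges over libraries did not overlap. All 6 libraries label the same anchors, so these ranges do not measure the spread between sets of loops. Private loops of the other lists also lay below the loops found in all 3 lists, at 56.0% to 58.3% over the 6 libraries for loops found only in Ino80KD and 48.7% to 51.2% for loops found only in Control. The anchors were thus about as often in A in Control cells, where the loops were not listed, as in Brg1KD cells. Both anchors were in A in both Brg1KD libraries in 59.7% of loops found only in Brg1KD, against 72.2% of loops found in all 3 lists, among loops under 200 kb. From 200 kb to under 500 kb these shares were 42.6% against 49.5%, from 500 kb to under 1000 kb 29.1% against 31.6%, and from 1000 kb up 27.7% against 36.0%.

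**Figure D5:**
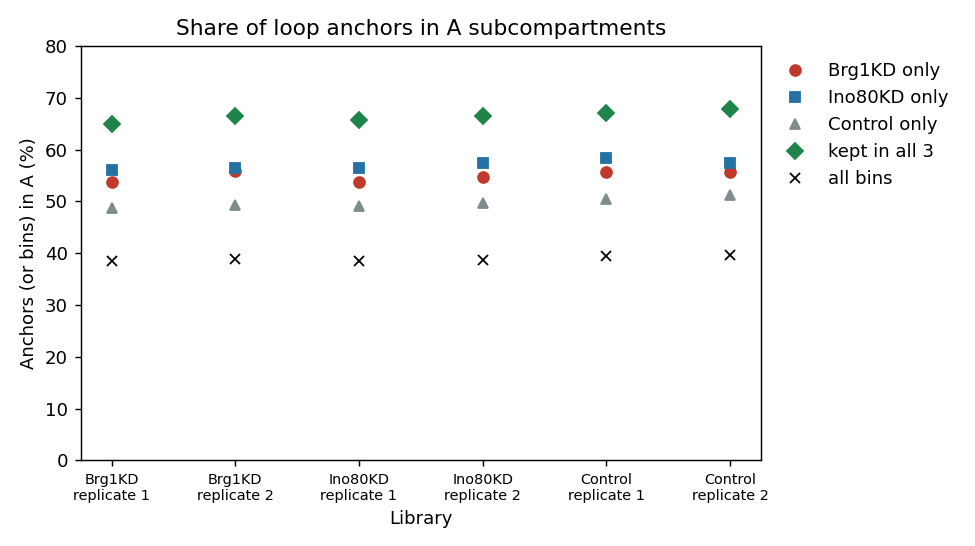
Share of loop anchors in A subcompartments (%) in each of the 6 libraries, with Brg1KD at the left and Control at the right, and all bins as crosses. Red circles, loops found only in Brg1KD, stay between 53.7% and 55.9% in all libraries, below the green diamonds of loops found in all 3 lists at 65.0% to 67.8%, as do the loops found only in Ino80KD and only in Control.

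Subcompartment labels at the anchors changed little between Brg1KD and Control. Ranked from 1 (B.2.2) to 8 (A.1.1), the anchors of loops found only in Brg1KD had mean ranks of 4.82 and 4.86 in the Brg1KD libraries, 4.82 and 4.84 in the Ino80KD libraries and 4.88 and 4.90 in the Control libraries. The mean shift, Brg1KD minus Control, was -0.0469 classes. In batch 1 alone it was -0.0598 and in batch 2 alone -0.0339. Leaving out Brg1KD replicate 1 gave -0.0239. Over all bins the shift was -0.0847 classes. Of 1630 bins of 50 kb that held these anchors, 112 (6.87%) ranked lower in both Brg1KD libraries than in both Control libraries and 54 (3.31%) ranked higher in both. Over all 47717 bins, 7.19% ranked lower and 3.13% higher in the same way. For Ino80KD, 54 of the anchor bins (3.31%) ranked lower and 27 (1.66%) higher than in both Control libraries, against 4.5% and 1.76% of all bins. The shares at the anchors were near those of the genome for Brg1KD. For Ino80KD the share that ranked higher was near that of the genome and the share that ranked lower was below it, which was not tested. With 2 libraries a group, the limma test called 74 of the anchor bins (4.54%) for Brg1KD, against 4.83% of all bins (Benjamini-Hochberg adjusted p under 0.05), and as it called more unchanged than changed bins on simulated ranks, nothing is read from it.

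The loops with the largest anchor shifts, picked for that size, moved in either direction and in some cases in both knockdowns. The left anchor of a loop of 120 kb on chromosome 8, at Ces4a, a carboxylesterase gene, was B.1.1 and B.1.2 in the Brg1KD libraries, B.1.2 and B.1.1 in the Ino80KD libraries and A.1.1 in both Control libraries. Its right anchor, which holds an end of Tradd, an adaptor of the TNF receptor, was A.1.1 in all 6. The loop's mean shift was -2.25 classes in both Brg1KD and Ino80KD. Its absence from the Ino80KD list follows from the rule that chose the loops, so nothing is read from it. A loop on chromosome 14 (101940001 to 102990001) had a right anchor at B.2.1 and B.2.2 in the Brg1KD libraries and at A.2.1 in all Ino80KD and Control libraries, a mean shift over its anchors of -2.25 in Brg1KD and -0.25 in Ino80KD. In the other direction, a loop of 140 kb on chromosome 10 (63420001 to 63560001) had its left anchor at A.1.1 in all 4 knockdown libraries and at B.2.1 and B.1.2 in the Control libraries.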

How the data were processed

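Hi-C was made from 6 libraries of E14 cells. Per the submitters' processing notes, the build was mm10 and the tools included Juicer 2.0, BWA, HOMER, bedtools and SAMtools. Sources used here do not name the loop caller. The deposited loop lists, 1 per group and taken as pooled from both libraries, give anchor positions with no value per loop. The deposited subcompartment segments carry a score, the rank of 8 labels, set by the authors in each library. Depth is unknown.

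Loops were matched, and ranks read in 50 kb bins, in Python 3.11.15 with pandas 2.3.3. Ranks were fitted with limma 3.58.1 in R 4.3.3 over all 6 libraries by group. The labels name the replicate number as batch, which pairs the libraries (same-batch deviations correlated at r = 0.0984 for Brg1KD and Control). Nothing says that replicates came from separate cultures, so their spread may be technical. Genes were placed by RefSeq (GRCm38.p6) with either end in an anchor. The loops named were those with a listed gene, the longest, the most isolated, those with genes at both anchors, those next to the threshold and those with the largest shifts; the miR-302, Mynn, Mutyh and Nup98 loops and the account of the Cdx2 region were chosen after their positions were seen. Members and gene lists were chosen with earlier results of these data known.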

Additional observations from a re-analysis of the deposited data

Results flagged for a closer look

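The X chromosome, which was left out of the comparisons because the rule covers autosomes, also held loops private to Brg1KD. Of its Brg1KD loops 21.8% (36 of 165) had no partner in the other lists, against 14.5% (21 of 145) for Ino80KD and 13.8% (20 of 145) for Control. It drew attention as a signal in data outside the main measurement, and the difference was not tested.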

How the results depend on the processing

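The number of loops found only in Brg1KD was 1019 with partners within 10 kb, 907 within 20 kb, 831 within 50 kb and 850 with a limit that grows with length, and the median length stayed at 280 kb with partners within 10, 20 or 50 kb. The share of these loops with a gene end at an anchor, 31.2%, was 61.9% with anchors widened by 10 kb, 72.4% with any overlap of a gene body and 16.6% with transcription starts, an alternative chosen after seeing the data. Starts were at hand for fewer genes than ends, so the 16.6% is a lower bound. The share of anchors in use by other lists, 43.8%, was 27.4% for the same bin and 54.2% within 30 kb. The mean anchor shift ranged from -0.0699 to -0.0239 classes when 1 library was left out, the last without Brg1KD replicate 1. The 2304 bins that limma called became 2547 with batch as a replicate block and 1143 in bins of 100 kb, and ranged from 3851 without either Ino80KD library to 24047 without Control replicate 2; leaving out either Brg1KD library gave 5224 or 5345. At the anchors the 74 called bins became 84 with the replicate block and 123 to 785 with 1 library left out, in the same order of groups. Of the bins called, 2294 had no spread within any group. Loop lists without scores or depth limit every count of loops.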

Other observations

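Few anchors served several loops found only in Brg1KD. Of 1688 distinct anchor bins, 1637 served 1 such loop, 48 served 2 and 3 served 3. The anchor at chr12:119660001-119670000 had 3 loops found only in Brg1KD and no loop of the Ino80KD or Control list within 10 kb. The anchor at chr2:82330001-82340000 had 1 Ino80KD loop and no Control loop there, and that at chr4:111240001-111250000 had no Ino80KD loop and 2 Control loops. No end of a protein-coding gene lay in these 3 anchors. In windows of 2000 kb the largest number was 5, reached in 6 windows. One of these, from 44 Mb of chromosome 7, includes the kallikrein genes Klk1b4 and Klk1b5. There the Brg1KD list held 11 loops, the Ino80KD list 6 and the Control list 4. In the tied window from 52000001 of chromosome 13 the lists held 14, 10 and 12 loops, in the same order. In that from 100000001 of chromosome 4 they held 11, 4 and 8. Each Brg1KD count includes 5 loops found only in Brg1KD, which the rule keeps out of the other lists. Nothing is thus read from these counts.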
